A study of Mus musculus with 2 samples.

Results

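The 10 genes described here are 9 genes of endothelial cells, the cells that line blood vessels, and Vegfa, the gene of the main growth signal for those cells. They were chosen by symbol, as Kdr, Flt1, Tek, Tie1, Cdh5, Pecam1, Esam, Egfl7, Cldn5 and Vegfa, and each symbol matched 1 of the 43346 gene rows. The material was mouse forebrain of strain B6NCrl at embryonic day 11.5, from healthy embryos of both sexes with no treatment or engineered allele named in the labels. Replicate 1 pooled the forebrains of 109 embryos and replicate 2 those of 88 embryos. Each library was built by a SmartSeq protocol, which copies and amplifies RNA, from 1 cell-equivalent of total RNA above the size cut of the preparation. The labels call the assay single cell, but the source was pooled tissue, so each library was read as 1 bulk sample, and in bulk tissue fewer cells of a type cannot be told apart from less RNA per cell. The design has 1 group of 2 libraries, so there is no contrast between conditions and no p-value, and no label gives separate groups of endothelial cells.

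In a growing brain, vessels enter the neural wall from a plexus on its surface and branch toward the ventricle. VEGF-A made by neural tissue acts on endothelial tyrosine kinase receptors encoded by Kdr and Flt1, while a second receptor pair, encoded by Tek and Tie1, serves the angiopoietins and vessel stability. Endothelial cells then seal to each other through VE-cadherin (Cdh5), PECAM-1 (Pecam1), ESAM (Esam) and, in brain vessels, claudin-5 (Cldn5).

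The libraries held 27395002 and 27977544 expected counts over genes. Expected counts are estimated reads per gene. TPM, which divides them by transcript length and scales the result to a fixed total, was used wherever levels of different genes were set side by side. Detection meant 1 TPM or more, which 8928 genes reached in replicate 1 and 9813 in replicate 2. The upper limit for a gene with a count of 0 is 3 counts, which equals 0.110 CPM in replicate 1 and 0.107 CPM in replicate 2 (CPM being counts scaled to the library's gene total). Without molecular identifiers reads are not independent molecules, so such limits and the counting intervals below cover counting error only.

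Kdr, Tie1, Cdh5, Esam and Egfl7 were detected in both libraries. Flt1, Tek and Pecam1 were detected in one library alone, and Cldn5 and Vegfa had 0 counts in both. That makes 5 members detected in both, 3 in one and 2 in neither. Of all 21474 protein-coding genes, 30.4% were detected in both, 16.1% in one alone, and 47.0% had 0 counts in both. The members were picked as genes of one cell type, so these shares give context and are not a test.

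**Figure D1:**
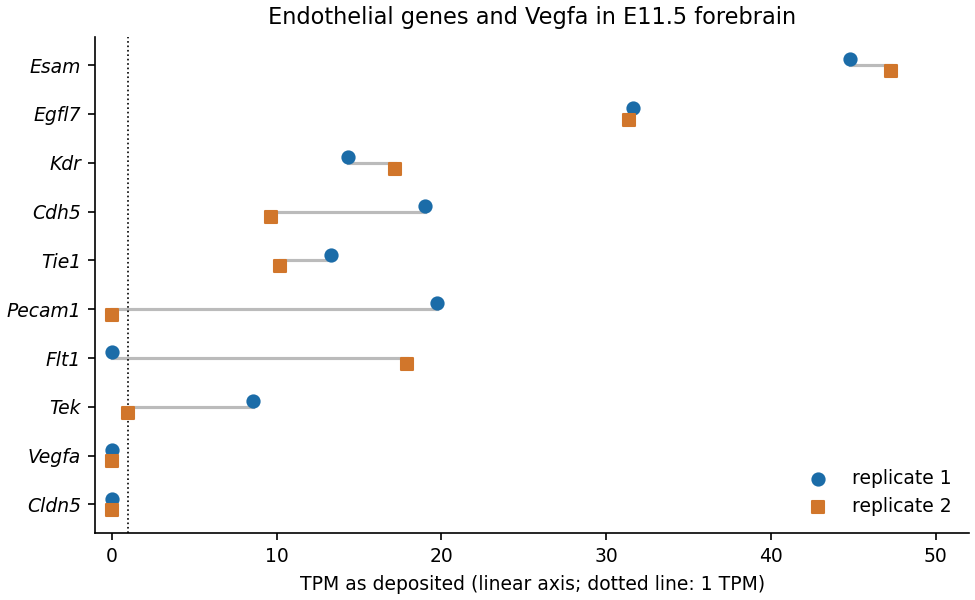
Deposited TPM (linear horizontal axis) of the 10 genes, ordered down the page from the highest mean to the lowest, with a circle for replicate 1, a square for replicate 2, a grey line joining them and a dotted line at 1 TPM. The markers of Esam, Egfl7, Kdr and Tie1 lie close together, those of Pecam1, Flt1 and Tek have one library near 0, and Vegfa and Cldn5 sit at 0 in both.

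The VEGF receptors differed from each other in how the libraries held them. Kdr (ENSMUSG00000062960.7, minus strand of mm10 chr5:75932827-75978458) encodes VEGF receptor 2, the receptor that carries most of the growth signal. It was at 14.3 TPM in replicate 1 and 17.2 TPM in replicate 2, from 1860 and 2229 counts. The libraries lay close together, with a mean of 15.8 ± 2.11 TPM (SD, n = 2) and a CPM ratio of replicate 2 to replicate 1 of 1.17 (95% exact counting interval 1.10 to 1.25). All Kdr counts in both libraries went to the full-length transcript Kdr-201, which has 30 exons, and none to the retained-intron model Kdr-202. Flt1 (ENSMUSG00000029648.9, minus strand of chr5:147561604-147726011) encodes VEGF receptor 1, which binds VEGF-A tightly and signals weakly. It had 0 counts in replicate 1 and 1076 counts in replicate 2, where it stood at 17.9 TPM. Against a floor of 3 counts in replicate 1, its CPM was at least 351-fold higher in replicate 2. In replicate 2 Flt1 and Kdr were thus at similar deposited TPM, but with all counts on the longest protein-coding transcript Flt1 stood at 7.14 TPM and Kdr at 17.3 TPM. In replicate 1 Kdr had counts and Flt1 had none.

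The Flt1 counts of replicate 2 were divided among 3 transcripts that begin alike and end differently. The full-length model, Flt1-202, has 30 exons and 3999 coding bases. Flt1-203 follows it through exon 12, then runs on past the end of exon 13 into the intron and stops there, with 2064 coding bases. This is the arrangement of soluble FLT1, a secreted decoy without the membrane and kinase parts. Flt1-201 leaves after exon 11 for a last exon of 241 bases (chr5:147654269-147654509) and has no annotated coding sequence. Of the Flt1 counts, 60.0% were assigned to Flt1-201, 26.0% to Flt1-202 and 14.0% to Flt1-203, or 645.76, 279.37 and 150.87 expected counts. As shares of TPM, which favour the shorter model, they were 83.5%, 10.4% and 6.14%. The assignment is an estimate, since 1808 of the 2049 bases of Flt1-201 also lie in Flt1-202, and it rests on 1 library.

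The bases at the branch points show what separates these transcripts. They come from the GENCODE release M21 transcripts of the same assembly, 5′ to 3′, with the last 15 shared bases in lower case and the first 15 after the branch in capitals.
Flt1-201 after exon 11: gaaggaacaaataagCCTGGGGAACTCATT
Flt1-202 and Flt1-203 after exon 11: gaaggaacaaataagACGGTTAGCACATTG
Flt1-202 after exon 13: aagttctcgttagagATTCGGAAGCGCCAC
Flt1-203 after exon 13: aagttctcgttagagGTGAGCACTGCGGCA
The first pair share the end of exon 11 and part at genomic base 147655097 of chromosome 5. The second pair share the end of exon 13, where Flt1-202 is spliced onward and Flt1-203 reads straight into the intron.

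The Tie receptors also parted. Tie1 (ENSMUSG00000033191.10, minus strand of chr4:118471191-118490061) encodes an orphan receptor that partners TIE2. It was at 13.3 and 10.2 TPM in replicates 1 and 2, a mean of 11.8 ± 2.21 (SD, n = 2). Its 1190 and 902 counts all went to Tie1-201, the model with 3402 coding bases. Tek (ENSMUSG00000006386.11, plus strand of chr4:94739289-94874976) encodes TIE2, the receptor for angiopoietins. It was at 8.54 TPM in replicate 1 from 871 counts and at 0.980 TPM in replicate 2 from 22 counts, just under the detection limit. The CPM of replicate 1 was 40.4 times that of replicate 2 (95% exact counting interval 26.5 to 64.9). The TPM gap was smaller than the CPM gap, as 4.55 of the 22 counts were assigned to Tek-204, a 361-base model that took 80.2% of the gene's TPM. The 871 counts of replicate 1 all went to Tek-203, of 4654 bases.

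Junction and adhesion genes covered the whole range. Esam (ENSMUSG00000001946.9, plus strand of chr9:37528078-37538319), an adhesion molecule of endothelial tight junctions and platelets, was the highest member, at 44.8 and 47.3 TPM. Among protein-coding genes it ranked 3111 and 3077 by TPM. Its counts were 1769 and 1349, so on the CPM scale it was higher in replicate 1 (ratio 1.34, interval 1.25 to 1.44) while its TPM was nearly equal. In replicate 1 all its counts went to Esam-201, but in replicate 2 that model had 83.1% of the counts and the retained-intron model Esam-203, of 627 bases, had 14.6%. Cdh5 (ENSMUSG00000031871.8, plus strand of chr8:104101625-104144511), the adherens junction cadherin of endothelium, was at 19.0 and 9.64 TPM. Its single transcript had 1656 and 831 counts, a CPM ratio of replicate 1 to replicate 2 of 2.04 (interval 1.87 to 2.21). Pecam1 (ENSMUSG00000020717.15, minus strand of chr11:106654217-106750628) was at 19.7 TPM in replicate 1, from 1283 counts. In replicate 2 it had 1 count, on a single-exon retained-intron model, and 0.0200 TPM. The CPM ratio was 1310, with a counting interval of 235 to 51793. All counts of replicate 1 were assigned to Pecam1-207, 1 of 6 protein-coding models among its 8, with 15 exons and 1878 coding bases. Cldn5 (ENSMUSG00000041378.1, plus strand of chr16:18776847-18778262), the main sealing claudin of the blood-brain barrier, has 1 exon and had 0 counts in both libraries.

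Egfl7 (ENSMUSG00000026921.14, plus strand of chr2:26580014-26593120) encodes a protein that endothelial cells secrete into their matrix. It had the closest levels of all detected members, at 31.6 and 31.4 TPM, or 31.5 ± 0.0707 (SD, n = 2). The counts behind these levels were the fewest among the members detected in both, at 281 and 411, and the CPM of replicate 2 was 1.43 times that of replicate 1 (interval 1.23 to 1.67). TPM was level where counts were not, since the counts were assigned to short models of different length at the 3′ end of the gene, with effective lengths of 398 and 589 bases. In replicate 1, 96.0% of them went to Egfl7-217, of 491 bases and 2 exons with no annotated coding sequence, and 4.02% to Egfl7-211. In replicate 2, 97.7% went to Egfl7-208, of 683 bases and 3 exons with 198 coding bases. The assignment is an estimate, since 388 bases of Egfl7-217 and 453 bases of Egfl7-208 also lie in the full model Egfl7-201. No counts in either library went to the 10-exon coding models Egfl7-201, Egfl7-202 and Egfl7-212.

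Egfl7 hosts a microRNA, miR-126, which is known for supporting VEGF signalling in endothelial cells. The Mir126a hairpin lies at chr2:26591357-26591429, and Egfl7-208 starts at base 26591435, which is 6 bases after its end, and Egfl7-211 starts 5 bases after it. Egfl7-217, which took most counts of replicate 1, starts 594 bases after it. The sequences are shown since this hairpin borders Egfl7-208, the model that took most counts of replicate 2. They are from RefSeq (mm10, GRCm38.p6, plus strand), 5′ to 3′, with capitals marking the mature 3p arm in the hairpin and the seed, bases 2 to 8, in the mature sequence.
Mir126a hairpin: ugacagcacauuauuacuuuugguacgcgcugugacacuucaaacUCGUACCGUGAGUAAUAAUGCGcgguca
mmu-miR-126a-3p: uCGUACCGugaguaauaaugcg
The Mir126a row itself had 0 counts in both libraries, in RNA selected for sizes above that of a mature microRNA, so it says nothing of the mature form. The exons of Egfl7 overlap those of Gm20532 on the same strand by up to 125 bases and of Agpat2 on the opposite strand by up to 64 bases. They also cover all 73 bases of the Mir126a hairpin on the same strand, in the retained-intron model Egfl7-206, and 58 bases of Mir126b on the opposite strand. Gm20532 and Agpat2 had 0 counts in both libraries.

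**Figure D2:**
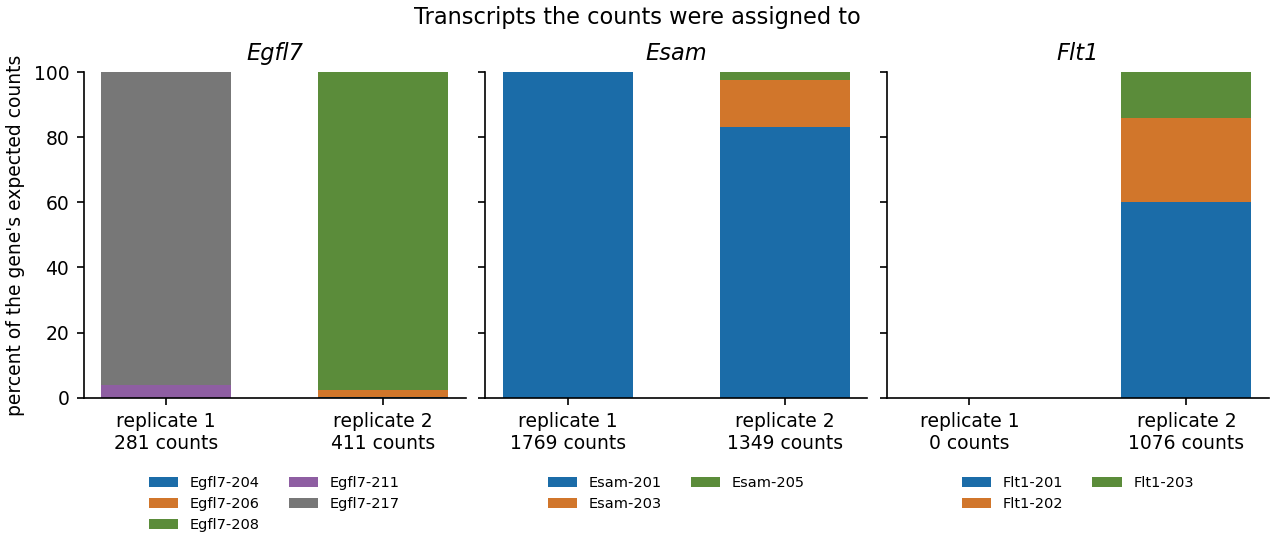
Percent of each gene's expected counts (vertical axis) that the authors' tables assign to each transcript of Egfl7, Esam and Flt1, 1 bar per library, with the gene's total counts under each bar. Egfl7 counts sit on Egfl7-217 in replicate 1 and on Egfl7-208 in replicate 2, Esam has a retained-intron share in replicate 2, and Flt1 has no bar in replicate 1.

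Vegfa (ENSMUSG00000023951.12, minus strand of chr17:46016993-46032369) had 0 expected counts in both libraries, on all 11 of its transcript models. These include 6 protein-coding models, which range from 438 to 1176 coding bases, and 5 with retained introns. Its deposited TPM was 0 in both, beside 14.3 and 17.2 TPM for Kdr. The limit a count of 0 allows was 0.110 CPM in replicate 1 and 0.107 CPM in replicate 2. It is a limit for these libraries and not for the tissue. The deposited posterior mean of Vegfa was not 0 but 0.660 and 0.670 TPM, with deposited intervals, of a level that is not stated, of 0.258 to 1.14 and 0.247 to 1.13, although the posterior mean count was 0. The same held for the other values at 0 counts. Flt1 in replicate 1, with 5 models, had a posterior mean of 0.430 TPM, and Cldn5, with 1 model, had 0.0300 TPM in both libraries. Posterior means this low therefore occurred with no counts at all.

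Ranked by mean TPM, the order was Esam (46.0 ± 1.77, SD, n = 2), Egfl7 (31.5 ± 0.0707), Kdr (15.8 ± 2.11), Cdh5 (14.3 ± 6.65), Tie1 (11.8 ± 2.21), Pecam1 (9.87 ± 13.9), Flt1 (8.94 ± 12.6) and Tek (4.76 ± 5.35). The steps from Esam to Egfl7 and from Egfl7 to Kdr were larger than the SDs on either side. From Kdr down, neighbours did not differ beyond their spread. The place of Egfl7 rested on its transcript length. With the counts of each gene divided by the effective length of its longest protein-coding transcript, an alternative chosen after the data had been seen, Egfl7 stood at 9.72 and 14.3 TPM, among Kdr, Cdh5 and Tie1. Flt1 stood at 7.14 TPM in replicate 2. Esam remained the highest member, at 44.8 and 34.4 TPM.

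**Figure D3:**
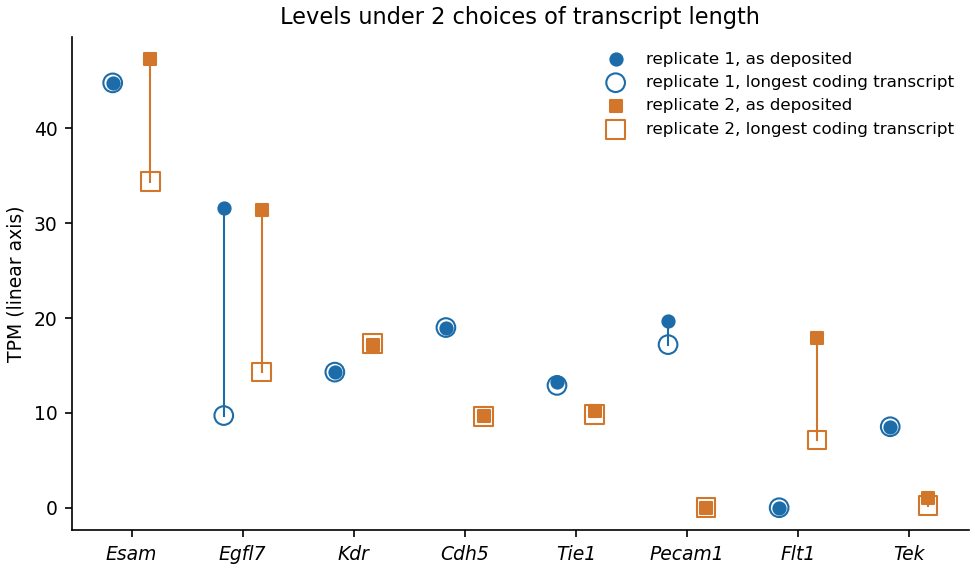
TPM (linear vertical axis) of the 8 members with counts, as deposited (small filled markers) and with every count placed on the longest protein-coding transcript (large open markers), with circles for replicate 1 and squares for replicate 2. Egfl7 drops in both libraries and Flt1 and Esam in replicate 2, while Kdr, Cdh5 and Tie1 barely move. Pecam1 drops slightly in replicate 1 and Tek in replicate 2.

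Between the libraries, 3 of the 8 members averaging 1 TPM or more differed 2-fold, measured as log2(TPM + 1), where differences of low genes come out too small. They were Flt1, at a difference of replicate 2 minus replicate 1 of 4.24, Tek at -2.27 and Pecam1 at -4.34. Of all 11107 genes averaging 1 TPM or more, 60.0% differed 2-fold. The remaining 5 had differences of 0.26 for Kdr, -0.36 for Tie1, -0.91 for Cdh5, 0.08 for Esam and within 0.01 of 0 for Egfl7. The median absolute difference of the 8 members was 0.63, against 1.45 for all genes at that minimum, and the median signed difference was -0.18, against 0.12. Esam and Egfl7 lie from 20 to 50 TPM, a range in which 56.1% of all genes differed 2-fold. Of the 6 members with a mean TPM from 4 to 20, 3 differed 2-fold, and 2 (Flt1 and Pecam1) had under 1% of their depth-scaled counts in one library. Over the 4057 genes in that range 78.8% differed 2-fold and 48.7% had under 1% in one library, a share that was 29.8% over all 11107 genes.

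**Figure D4:**
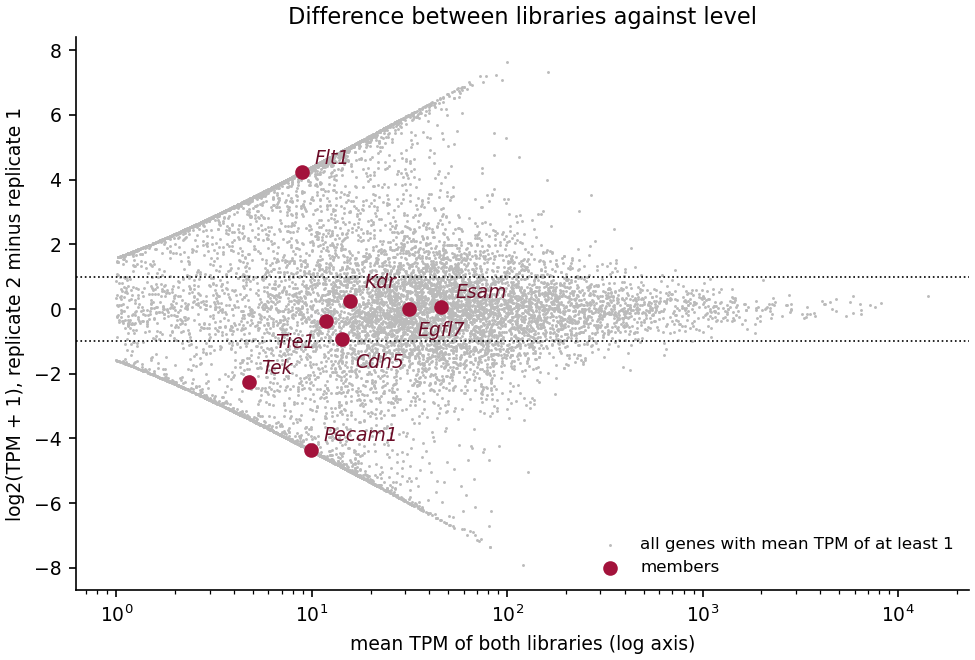
Difference between libraries, as log2(TPM + 1) of replicate 2 less that of replicate 1, against mean TPM on a log axis, for the 11107 genes averaging 1 TPM or more (grey) and the 8 such members (red), with dotted lines at a 2-fold difference. Flt1 and Pecam1 lie on the edges formed by genes read in one library alone, Tek lies outside the lines, and the other 5 lie between them.

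The ERCC spike-ins, control RNAs that the labels name alike for both libraries, were read in the same way. Of 7 spike-ins with a mean TPM from 4 to 20, all 7 differed 2-fold and 6 had under 1% of their TPM in one library, with 2 at 0 counts in replicate 1 and 3 at 0 in replicate 2. Of 2 spike-ins at the level of Esam and Egfl7, between 20 and 50 TPM, 0 differed 2-fold. Of 9 averaging 1000 TPM or more, 0 differed 2-fold, and their median absolute log2 difference was 0.281. Spike-ins held 8.44% and 6.56% of the TPM. Their part in the values of Flt1, Pecam1 and Tek was not tested.

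Summed over the 9 endothelial members, TPM came to 151 and 135, a mean of 143 ± 11.7 (SD, n = 2), and counts to 8910 and 6821. The 5 detected in both libraries held 123 and 116 of that TPM. In CPM the 9 summed to 325 and 244. Replicate 1 drew on Pecam1 and Tek where replicate 2 drew on Flt1.

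Partners of the VEGF receptors were mostly read in one library. Of the 7 listed VEGF ligands, receptors and coreceptors that are not members, 1 was detected in both libraries, 4 in one alone and 2 in neither, beside 30.4%, 16.1% and the remainder of all protein-coding genes. The coreceptor gene Nrp2 was at 5.71 and 7.35 TPM. Its relative Nrp1 was at 0.850 and 3.83 TPM, so it passed in replicate 2 alone. The ligand genes Vegfb, at 6.37 and 0.850 TPM, and Vegfc, at 8.07 and 0.990 TPM, passed in replicate 1 alone. Flt4, the receptor gene for VEGF-C, was at 15.8 TPM in replicate 1 from 2178 counts and at 0 counts in replicate 2. Pgf, the placental growth factor gene, and Vegfd had 0 counts in both libraries, like Vegfa. No ligand gene of the VEGF family was thus detected in both libraries, while 1 of the 3 receptor genes was.

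Of the angiopoietin genes, Angpt1 and Angpt2 were read in replicate 1 alone, where Tek was also higher. Angpt1, the activating ligand of TIE2, had 1027 counts in replicate 1, and Angpt2, its context-dependent antagonist, had 390 counts there, at 5.04 TPM. Both had 0 counts in replicate 2, where Tek had 22. Ptprb, which encodes the phosphatase VE-PTP that acts on TIE2 and VE-cadherin, and Angpt4 had 0 counts in both libraries. Over the 6 genes of this list, Tek and Tie1 included, summed TPM was 37.9 in replicate 1 and 11.2 in replicate 2. Gaps of this kind were common at such levels. Of all 4057 genes with a mean TPM from 4 to 20, where Angpt1 and Tek lie, 78.8% differed 2-fold. Whether the angiopoietin genes and Tek vary together was not tested.

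Of 20 transcription factor genes of endothelial and blood-forming cells, 5 were detected in both libraries, 4 in one alone and 11 in neither. Beside this stand 30.4% in both and 16.1% in one alone over all protein-coding genes, so the list was not detected more often than genes in general. The nuclear receptor gene Nr2f2, a venous regulator that brain tissue also expresses, was at 47.8 and 45.8 TPM, Lmo2, a partner of Tal1, at 44.9 and 47.8, and the ETS factor gene Elk3 at 10.1 and 15.2. Fli1, another ETS factor gene, was at 6.05 and 11.9 TPM. Erg, its close relative, stayed under the limit at 0 and 0.880 TPM from 58 counts in replicate 2. Etv2, an early inducer of endothelial fate, and the SOX factor genes Sox17 and Sox18 had 0 counts in both libraries.

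ETS factors bind DNA with a GGAA core, and that core was counted in the RefSeq promoters of the members, over the 250 bases before each start site on both strands. Promoters were available for 7 of the 10 members, with 10 start sites, and not for Cdh5, Pecam1 or Esam, the highest member. Kdr and Flt1 are shown as the VEGF receptor pair, of which Flt1 alone was far apart between the libraries, and Cldn5 as the sealing gene with 0 counts, on GRCm38.p6, with GGAA or its reverse complement TTCC in capitals.
Kdr, chr5:75978456-75978705, minus strand: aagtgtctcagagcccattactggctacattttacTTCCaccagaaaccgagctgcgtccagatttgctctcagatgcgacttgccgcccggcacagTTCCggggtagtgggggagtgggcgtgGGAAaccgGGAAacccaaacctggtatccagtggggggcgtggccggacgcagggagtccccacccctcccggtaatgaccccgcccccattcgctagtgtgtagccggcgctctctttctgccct
Flt1, chr5:147726012-147726261, minus strand: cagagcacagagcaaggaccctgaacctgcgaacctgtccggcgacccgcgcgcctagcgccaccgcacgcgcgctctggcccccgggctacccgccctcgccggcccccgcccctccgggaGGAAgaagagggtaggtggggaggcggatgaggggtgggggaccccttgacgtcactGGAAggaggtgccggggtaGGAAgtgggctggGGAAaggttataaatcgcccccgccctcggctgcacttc
Cldn5, chr16:18776597-18776846, plus strand: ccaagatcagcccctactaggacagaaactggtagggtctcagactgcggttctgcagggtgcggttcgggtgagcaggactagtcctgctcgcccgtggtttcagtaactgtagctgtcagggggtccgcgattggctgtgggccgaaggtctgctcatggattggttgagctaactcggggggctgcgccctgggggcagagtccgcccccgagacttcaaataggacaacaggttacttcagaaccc
Kdr and Flt1 had 4 matches each and Cldn5 had 0. Vegfa, which also had 0 counts, had 6 and 2 matches at its start sites, Tie1 had 7, Egfl7 had 5, 3 and 1, and Tek had 2. Any relation of matches to levels was not tested. Of all 32851 promoter windows, 93.4% held at least 1 match, with a median of 3, so the core is common. A match is a description of the letters and not a bound site.

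Of 20 further endothelial markers, 5 were detected in both libraries, 10 in one and 5 in neither, with the 10 split into 5 in each library. Over all protein-coding genes, 30.4% were detected in both and 16.1% in one. Ramp2, a receptor subunit for adrenomedullin, was at 42.6 and 138 TPM, Ecscr, a surface protein of endothelium, at 63.9 and 30.7, and S1pr1, a sphingosine phosphate receptor gene, at 28.2 and 54.9. Summed TPM of the 20 was 294 and 397. Emcn, Robo4, Apln and Tmem204, named after their values were seen, had 0 counts in both libraries. Each library thus held some endothelial markers, by partly different genes. In both libraries together the list was detected no more often than genes in general.

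Cells other than endothelium express several members, so their markers were read as well. Pecam1, Esam and Tek are also known from platelets, leukocytes or blood stem cells. The numbers detected below stand beside 30.4% in both libraries and 16.1% in one alone over all protein-coding genes. Of 7 megakaryocyte and platelet genes, 2 were detected in both libraries, the chemokine gene Pf4 at 194 and 75.5 TPM and the integrin gene Itga2b at 1.79 and 24.9, and their summed TPM was 231 in replicate 1 and 105 in replicate 2. Within that list Ppbp had 769 counts and 35.0 TPM in replicate 1, against none in replicate 2, and Treml1 had 0 counts in both. Among 13 myeloid genes, both libraries held 2 and a single library held 5, with Fcer1g at 65.8 and 23.3 TPM, Csf1r at 15.7 and 2.86, and a sum of 132 and 77.8. The leukocyte gene Ptprc and the myeloid regulator gene Spi1 had 0 counts in both. Of 12 erythroid genes, 6 were detected in both, led by Hbb-y at 12348 and 16181 TPM, Hba-a2 at 7689 and 8703 and Hba-x at 4019 and 4454, with a sum of 31193 and 37361. Of 4 lymphatic genes, Pdpn alone was detected in both, at 75.0 and 47.3 TPM, and Lyve1 had at most 1 count. The platelet and myeloid sums were higher in replicate 1, as were Pecam1 and Tek, but the genes of these lists went both ways. Pf4 alone held 194 of the 231 TPM of the platelet list in replicate 1, while Itga2b was higher in replicate 2 and Gp1bb was at 0 and 4.39 TPM, and the median difference of that list was 0.54, toward replicate 2. That of the myeloid list was -2.12, with Lyz2 (25.7 TPM) and C1qc (24.8 TPM) detected in replicate 2 alone. The part of these cells in the values of Pecam1 and Tek was not tested.

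The genes that VE-cadherin, ESAM and claudin-5 work with inside the cell were mostly present, though these are expressed by neural cells too. Of 12 junction partner genes, 10 were detected in both libraries, beside 30.4% of all protein-coding genes. Of the 11 averaging 1 TPM or more, 7 differed 2-fold between the libraries, beside 60.0% of all genes at that minimum. Ctnnb1, which encodes beta-catenin, was at 390 and 387 TPM, Jam3 at 265 and 106, and Ctnna1, alpha-catenin, at 78.3 and 86.2. Ocln, the tight junction gene for occludin, had 0 counts in both libraries, like Cldn5.

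Vegfa is a textbook target of hypoxia-inducible factors, and genes of that pathway were read in the same libraries. Of 19 listed genes, 13 were detected in both libraries, 3 in one and 3 in neither, beside 30.4% in both and 16.1% in one over all protein-coding genes. The highest were the glycolytic genes Ldha, at 2106 and 1818 TPM, and Pgk1, at 490 and 573, followed by the mitophagy gene Bnip3 at 130 and 195. The 3 with 0 counts in both were Adm, Ankrd37 and Ddit4, which were named after their values had been seen. Genes of the pathway were therefore found both at high levels and, like Vegfa, at 0.

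The median difference of each list between libraries, over its genes averaging 1 TPM or more, is set against 0.12 for all such genes. It was 0.26 for the VEGF list, -2.43 for the angiopoietin and Tie list, 0.01 for the transcription factors and -0.86 for the further endothelial markers. It was 0.55 for the junction partners and 0.01 for the HIF list. The sign can depend on the measure, as for the further endothelial markers, whose summed TPM was higher in replicate 2 while their median was below 0.

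**Figure D5:**
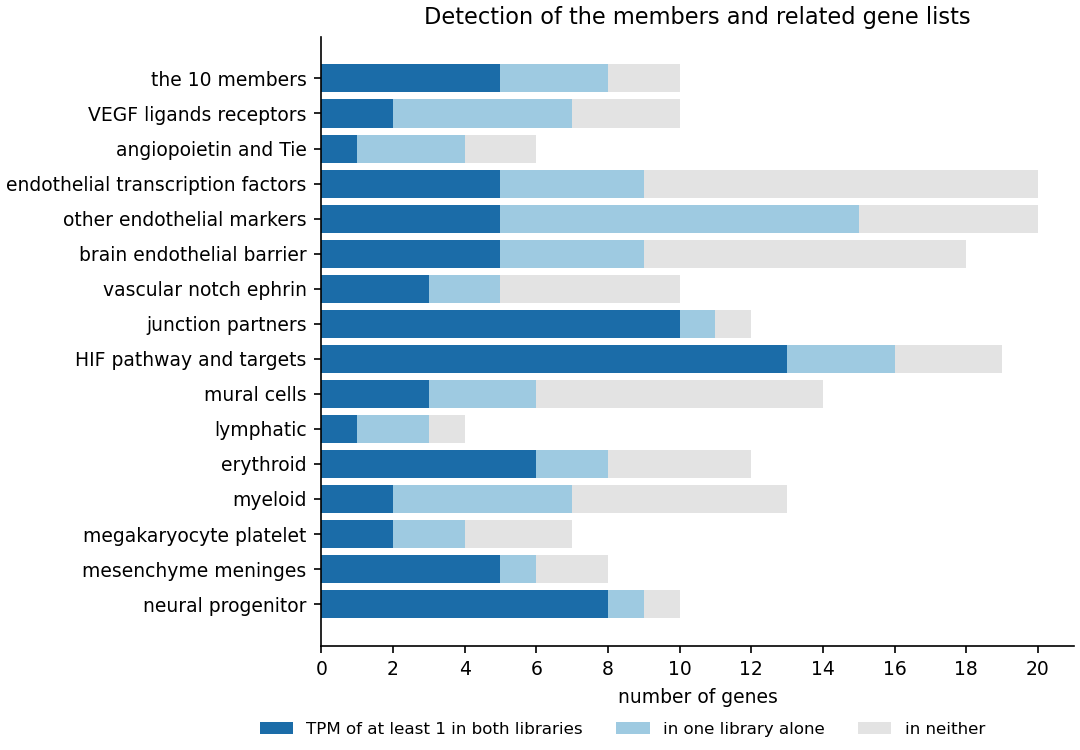
Number of genes (horizontal axis) that reached 1 TPM in both libraries, in one alone or in neither, for the 10 members and 15 related lists. Junction, HIF pathway, neural progenitor and mesenchyme lists are mostly dark. The other endothelial markers have their largest part, 10 of 20, in one library alone, as do the VEGF, angiopoietin and lymphatic lists.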

How the data were processed

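RNA of 2 pools of forebrain was sequenced, 1 library each. The authors deposited gene and transcript tables of expected counts, TPM and FPKM (each also as a posterior mean), and the percent of a gene's TPM per transcript, per the file headers. Posterior SDs and interval bounds, whose level is not stated, were treated as a score, as the authors deposited them. Assembly mm10 and annotation release M4 are named in the text deposited with the tables. Which aligner and quantifier were used, and whether strand was, is not given in the sources used here. TPM covers spike-in rows too.

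Symbols and coordinates came by gene ID from GENCODE M21 on mm10, which matched 98.0% of 43346 gene rows. All 59 member transcripts matched by ID, 56 with the same length. Promoters and the microRNA came from RefSeq (GRCm38.p6). Counts, sums, differences with a pseudocount of 1, and exact binomial and Poisson limits at 95% were computed in Python 3.11.15 with pandas 2.3.3 and scipy 1.17.1. The code for the 2-fold count was run on simulated data that held counting error alone. That run does not cover amplification or loss of RNA, so it says nothing of how reliable a 2-fold difference is here.

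The members, the 15 lists and the naming rule were chosen with earlier results of these data known. The rule takes all members, the 3 highest genes of each list detected in both libraries, and set ligands, receptors and factors. Other genes named were chosen after their values were seen.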

Additional observations from a re-analysis of the deposited data

How the results depend on the processing

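The count of 5 members detected in both libraries became 6 at a TPM of at least 0.5 or with posterior means, in both cases through Tek, and stayed at 5 at a TPM of at least 5. Either library alone gave 6 to 7. The 3 members that differed 2-fold were 2 with a pseudocount of 10, where Tek was at -0.76, and 4 in CPM, where Cdh5 was at -1.0. The count was 0 among members with a mean of 10 TPM or more, since none of the 3 reaches that level. Of 56 alternative values for the differences of single members, 54 stayed on their side of 2-fold. The mean summed TPM of 143 for the endothelial members ranged from 135 to 151 over single libraries. It was 155 without spike-ins, a rescaling that raises every gene, and 110 on the longest protein-coding transcript. That choice lowers the sum mainly through Egfl7, Flt1 and Esam, and less through Pecam1, Tie1 and Tek. The leading transcript was the same in 4 of the 5 members detected in both libraries, Egfl7 being the exception, and 4 by each alternative. By counting error alone, 0 counts of Vegfa and Cldn5 allow up to 0.110 and 0.107 CPM. Loss of RNA before sequencing is not covered. Of 7 spike-ins averaging 4 to 20 TPM, 2 also had 0 counts in replicate 1 and 3 in replicate 2. No paired analysis was possible because there is 1 group.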

Other observations

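Genes of the brain endothelial barrier were detected in both libraries for 5 of 18, in one alone for 4 and in neither for 9. Over all protein-coding genes the shares were 30.4% in both and 16.1% in one alone. The glucose transporter gene Slc2a1 was at 115 and 79.2 TPM, the amino acid transporter subunit gene Slc3a2 at 64.7 and 43.6, and Lef1, a transcription factor gene of Wnt signalling, at 13.2 and 54.1. Neural cells express all of these too. The lipid transporter gene Mfsd2a, named after its values were seen, had 2088 counts and 46.1 TPM in replicate 2, against no counts in replicate 1, and the efflux pump gene Abcb1a had 0 counts in both, like Cldn5.

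Of 10 Notch and ephrin genes that shape arteries and veins, 3 were detected in both, 2 in replicate 2 alone and 5 in neither. The share of all protein-coding genes detected in both was 30.4%, and in one alone 16.1%. Notch1 was at 90.1 and 16.3 TPM, Hey1 at 33.3 and 11.2, and the arterial ligand gene Efnb2 at 2.70 and 28.5. Notch1 is also among the neural progenitor genes listed below, and bulk tissue does not separate these sources. The endothelial genes Dll4 and Notch4 had 0 counts in both, and were named after this was seen. All 5 genes of this list that averaged 1 TPM or more differed 2-fold, against 60.0% of all genes at that minimum. The median difference of replicate 2 minus replicate 1 was 2.12 for this list and 0.63 for the barrier list, against 0.12 over all genes.

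The last lists stand beside the same shares over all protein-coding genes, 30.4% in both libraries and 16.1% in one alone. Of 14 genes of mural cells, which wrap vessels, and of their recruitment, 3 were detected in both, 3 in one and 8 in neither. Vtn was at 63.1 and 116 TPM, Tagln at 57.2 and 31.6 and Notch3 at 10.4 and 8.67, while Cspg4, Kcnj8, Tbx18, Anpep and Pdgfb, the last a ligand that endothelium makes to recruit mural cells, had 0 counts in both. Of 8 mesenchymal and meningeal genes, 5 were detected in both, led by the proteoglycan gene Lum, at 169 and 62.6 TPM, then the collagen genes Col3a1 (85.8 and 117 TPM) and Col1a1 (66.1 and 70.3 TPM). Of 10 neural progenitor genes, 8 were, with Vim at 741 and 1290 TPM, Fabp7 at 438 and 1010 and Hes5 at 24.7 and 105.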
